A study of Oryza sativa with 2 samples.

Results

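The 10 genes described here encode proteins that find or mend damaged DNA in rice (Oryza sativa). They are KU70, KU80, the replication protein A subunits RPA1A, RPA1B, RPA1C, RPA2A and RPA14, the MutS homologue MSH5, RAD23 and a photolyase. Their probes were found by gene symbol or synonym in the array's annotation. The genes were chosen with earlier results of these data known, and the spot of each probe rests on a numbering recovered from the values. The probes came to 16 of the 22574 with a value on both arrays, for 10 of the 15798 genes that a probe names. KU70, KU80 and RAD23 had 3 probes each and the other genes 1 each. Probes of a gene are numbered here from the brightest to the dimmest. They are annotated to the same gene, so they are not replicates, and whether they read the same transcript was not tested.

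Whole seedlings, 7 days old and raised on MS medium in a growth chamber, were irradiated with carbon ion beams for 2 h 35 min per the labels, and healthy seedlings without irradiation were the control. No cultivar, genotype, radiation dose or time of sampling after the exposure is given in the sources used here. Total RNA was compared on 2 arrays, each with an irradiated and a control extract in different dyes. The first array carried irradiated RNA in Cy5 and the swapped array carried it in Cy3. Both labels give replicate 1, so the arrays were taken as a dye swap of the same extracts and counted as 1 replicate per group. No difference below has a replicate check, so no p-value is given, and 2 arrays give only a coarse measure of technical error.

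Ku is a ring-shaped dimer of KU70 and KU80 that slides onto broken DNA ends and starts their direct joining. Replication protein A (RPA) is a trimer of a large, a middle and a small subunit that coats single-stranded DNA during replication, recombination and excision repair, and plants carry several genes for the large subunit. RAD23 helps the recognition of bulky lesions and carries ubiquitinated proteins to the proteasome, MSH5 acts in meiotic crossing over, and photolyase splits ultraviolet-induced pyrimidine dimers with the energy of light. Densely ionizing particles such as carbon ions are known for clustered damage that includes breaks in both strands.

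All values are log2 ratios of irradiated over control after each array was centred on its own trend with spot brightness. Their direction is likely and not certain, because neither the labels nor the file say which dye is the numerator of the deposited ratios. Cy5 over Cy3 was assumed, and with the opposite order every sign below would turn. The gene names rest on a numbering of the probes recovered from the values. With it the 11 photosynthesis probes, from genes such as CAB1R and PORA of green tissue, had a median intensity of 10528, against 211 for all probes and 342 when the annotation's numbers were taken as row numbers. Root transport genes had a median intensity of 212 over 20 probes and seed storage and amylase genes one of 120 over 14 probes. Green-tissue transcripts were thus bright, and the root and seed lists were near or below the median of the arrays. The numbering came from the same values, so these intensities are no independent check of it. Log intensities of 2 probes of a gene correlated at 0.26 over 1859 genes, against 0.013 with the annotation's numbers as row numbers. That correlation uses the same intensities, so it is no independent check either.

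None of the 16 DNA repair probes was at least 2-fold higher or lower on both arrays. Among all 22574 probes 1.84% were 2-fold higher on both arrays and 0.279% were 2-fold lower. At 1.5-fold, or 0.58 log2 units, the repair probes again held 0 higher and 0 lower, where 3.85% of all probes were higher and 2.06% lower. At those shares 16 probes would hold 0.95 past 1.5-fold, so a count of 0 is near the background and sets these genes apart in neither direction. In RNA of whole seedlings, fewer cells of a type and less RNA per cell cannot be told apart.

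The median of the 16 means was 0.20, beside -0.0039 over all probes, and 11 of the 16 means lay above 0, against 49.5% of all probes. The means ran from -0.84 for RAD23 probe 3 to 0.56 for KU70 probe 1. Both arrays had the same sign for 9 of the 16 probes, against 43.9% of all probes. On both arrays 7 were above 0 and 2 below 0, where 22.0% of all probes were above and 22.0% below. With each array centred on its median alone, without the brightness trend, the median was 0.06 and 9 of the means lay above 0.

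KU70, a subunit of the Ku dimer, was read by 3 dim probes that gave unlike values. Its probe 1 stood at 0.31 on the first and 0.80 on the swapped array, and its mean was 0.56. Its probe 3 gave 0.40 and 0.37, a mean of 0.39 and the smallest gap between arrays of all 16 probes. Both of these were above 0 on each array. Probe 2 of KU70 lay below 0 on each array, at -0.21 and -1.10, with a mean of -0.65. The means of the 3 probes thus spanned 1.21 log2 units, and their average was 0.10. Under median centring the KU70 means shrank to 0.10, -0.14 and 0.13 in the order of the probes.

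KU80, the partner of KU70, had means between -0.13 and 0.24 over its 3 probes. Probe 1, in the brightest decile of the array with an intensity of 1319, read 0.77 on the first and -0.63 on the swapped array, and its mean was 0.07. Its recovered intensity was 708 on the first and 2457 on the swapped array, and its decile rests on their mean on the log scale. The other probes gave -0.35 and 0.09, a mean of -0.13, for probe 2 and -0.36 and 0.84, a mean of 0.24, for probe 3. All 3 KU80 probes had opposite signs on the arrays, so each followed the dye more than the sample. The dye-following part of a probe is its value on the first array minus that on the swapped array, divided by 2. For KU80 probe 1 it was 0.70, while its robust SD among probes of that decile was 0.20, and 98.4% of them had a smaller one in size. Under median centring the means were -0.15, 0.01 and 0.50 in the order of the probes, so the sign of probes 1 and 2 turned and probe 3 moved away from 0.

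Among the RPA genes, RPA1A had the highest mean. This large subunit read 0.25 on the first and 0.67 on the swapped array, with a mean of 0.46 or 1.38-fold, and 85.7% of the probes in its brightness decile had a lower or equal mean. RPA1C, another large subunit, gave 0.12 and 0.20, a mean of 0.16 from a dim probe, or -0.29 under median centring. Both arrays placed RPA1A and RPA1C above 0 with the brightness trend removed.

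The third large subunit gene, RPA1B, gave 1.47 on the first and -1.96 on the swapped array, so both values passed 2-fold in opposite directions. Its mean was -0.25. It was the only repair probe past 2-fold with the dye on both arrays, and its dye-following part of 1.71 was larger than that of 96.3% of the probes in its decile. RPA2A, the middle subunit, read 0.39 and -1.83, and its mean of -0.72 was at percentile 5.32 of its decile.

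The small subunit RPA14 ran the other way, with -0.54 on the first and 1.28 on the swapped array and a mean of 0.37. RPA1B, RPA2A and RPA14 therefore had no common sign across arrays, and in each the dye-following part was larger than 1 robust SD of its decile. The other middle subunits of RPA, which are no members and were looked up after the annotation had been seen, gave means of -0.24 for RPA2B, from 0.48 and -0.96, and 0.01 for RPA2C, from 0.17 and -0.15. Subunits of the trimer thus gave no shared direction: of the 5 RPA probes of the set, 3 means were above 0 and 2 below, with a median of 0.16.

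**Figure D1:**
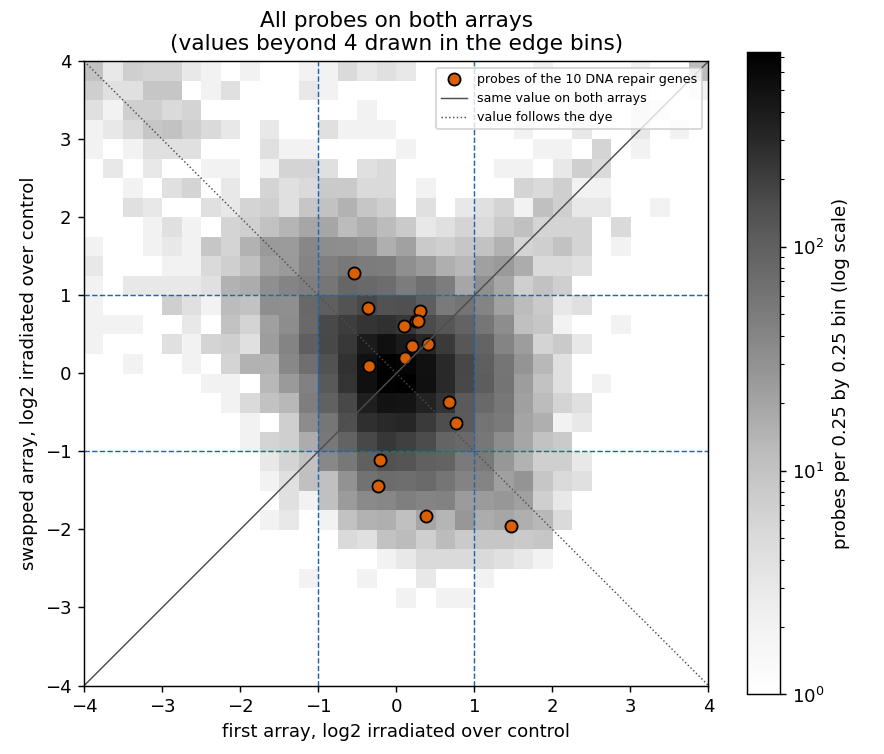
Log2 ratio of irradiated over control on the first array (x axis) and the swapped array (y axis) for all 22574 probes, as grey counts per bin, with the 16 DNA repair probes in orange and 2-fold as dashed lines. Points near the solid diagonal have the same value on both arrays and points near the dotted one follow the dye, as RPA1B does at the lower right.

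Of the 6 repair probes in the brighter 5 deciles, RPA1A, MSH5 and RAD23 probe 1 were above 0 on both arrays, and the other 3 had opposite signs. Among all probes of these deciles 25.7% were above 0 on both arrays. MSH5, whose protein works with MSH4 at meiotic crossovers, stood at 0.28 on the first and 0.68 on the swapped array. Its mean of 0.48, or 1.39-fold, exceeded the robust SD of the dye-following part in its decile, which was 0.35. Under median centring its mean was 0.53, and its sign was the same on each array alone.

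RAD23 probe 1 was the brightest of the 16, with an intensity of 3023. It gave 0.10 on the first and 0.60 on the swapped array, with a mean of 0.35 or 1.28-fold, and 0.26 under median centring. That mean lay at percentile 87.2 of the brightest decile, where means ran from -0.52 to 1.14 between the 5th and 95th percentiles. Probe 2 of RAD23 read 0.21 and 0.35, a mean of 0.28. Its probe 3 disagreed, at -0.24 and -1.45, and its mean of -0.84 was the lowest of the set and the one value outside the 5th to 95th percentiles of its decile. The recovered intensity of that probe was 240.2 on the first and 99.7 on the swapped array, and the latter rests on a restored common factor. Median centring reduced its mean to -0.24.

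The photolyase gene, whose product repairs ultraviolet damage and needs light, read 0.67 on the first and -0.36 on the swapped array. Its mean was 0.15, and -0.30 under median centring, so its sign was not settled. Of all 16 probes, 4 had a mean whose sign turned between the brightness trend and median centring: KU80 probes 1 and 2, RPA1C and photolyase.

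Of the 16 probes, 10 lay in the dimmer 5 deciles, where 4.37% of all probes passed 1.5-fold on both arrays, and 6 in the brighter 5 deciles, where 7.45% did. The median intensity of the repair probes was 168, against 211 for all probes. The arrays correlated, across probes and not replicates, at -0.52 in the second dimmest decile, which held RPA1B and RPA2A, and at 0.60 in the brightest. In deciles 6, 7 and 8 from the dimmest, which held KU80 probe 2, RPA14, RPA1A and MSH5, they correlated at -0.22, -0.30 and -0.29. Both arrays had the same sign for 6 of the 10 dimmer repair probes, against 36.2% of all probes in those deciles. They did for 3 of the 6 brighter ones, against 51.6%. The robust SD of the dye-following part was 0.74 in the second dimmest decile and 0.20 in the brightest. Of the 16 means, 11 were smaller than 1 such SD of their decile, against 74.8% of all probes. The exceptions were RAD23 probes 1 and 3, MSH5, RPA1A and KU70 probe 2.

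**Figure D2:**
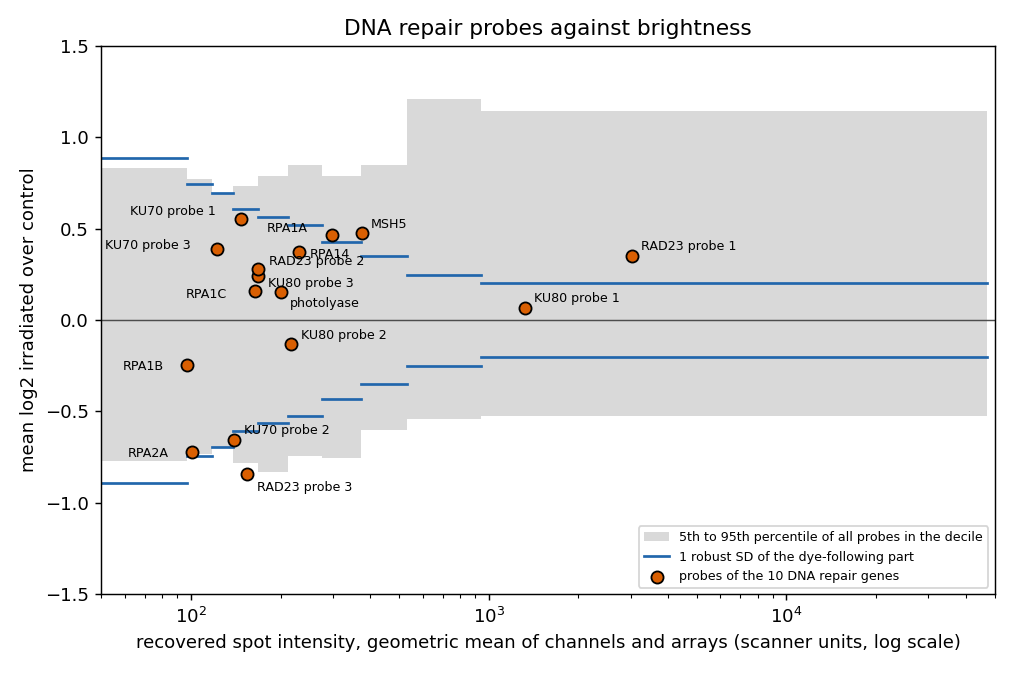
Mean log2 ratio of both arrays (y axis) against recovered spot intensity (x axis, log scale) for the 16 DNA repair probes, with the 5th to 95th percentiles of all probes per intensity decile in grey and 1 robust SD of the dye-following part in blue. RAD23 probe 3, at -0.84, is the only repair probe outside the grey range, and RAD23 probe 1 and KU80 probe 1 are the only ones in the brightest decile.

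On a single array more of these probes passed 2-fold. On the first array RPA1B was higher and 0 were lower, where 9.29% of all probes were higher and 7.86% lower. On the swapped array RPA14 was higher, where 10.3% of all probes were, and KU70 probe 2, RPA1B, RPA2A and RAD23 probe 3 were lower, where 9.26% were. None of these 5 probes passed 2-fold in the same direction on the other array.

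Other genes of the same pathways were taken from lists chosen by gene role, with earlier results of these data known. The list for repair of breaks in both strands and for recombination, which includes meiotic genes, held 14 probes of 13 genes, with 0 past 1.5-fold in either direction on both arrays and a median of 0.02. RTEL1, a helicase that takes apart recombination intermediates, had its highest mean of 0.62, from -0.34 and 1.57. The lowest was a probe named ZIP4, at -0.76, from -0.36 and -1.15. It was matched by name alone, and whether it reads the meiotic gene of that name was not checked. The counts and the median of the list include it. MRE11 and NBS1, of the complex that senses broken ends, were added after their values were seen. Their means were -0.60, from -0.07 and -1.12, and -0.26, from -0.17 and -0.34. Of the 14 probes of the list, 8 had a mean above 0. Both arrays were above 0 for 2 of the 14 and below 0 for 4, where 22.0% of all probes were above and 22.0% below. The median of this list was close to that of all probes.

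The mismatch repair list, which leaves out MSH5 as a member of the set, held 0 probes by the names searched. Base excision and related genes held 6 probes of 4 genes with a median of -0.29, or -0.029 under median centring. ROS1C, a DNA glycosylase that removes methylated cytosine, was the only gene lower by 1.5-fold on both arrays, at -1.53 and -0.84 from a probe in the dimmest decile. Its brighter probe gave 0.45 and 0.45, so the probes of ROS1C disagree. The other 4 probes belonged to CRYD and to the poly(ADP-ribose) polymerases PARP1 and PARP3, and all 4 had opposite signs on the arrays. PARP1, which binds strand breaks, had the highest probe of the list at 0.53, from -0.48 and 1.55, while its other probe stood at -0.52.

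The damage response and checkpoint list held 11 probes of 9 genes, 1 of them at least 2-fold higher and 0 lower, with a median of 0.11. All 9 genes were regulators of the cell cycle, and no sensor of DNA damage was among them. The higher one was EL2, which restrains cyclin-dependent kinases, with 5.21 on the first and 4.72 on the swapped array. The lowest was the mitotic cyclin CYCB1-1, at -1.81 and -0.38, a mean of -1.10. The replication list held 17 probes of 16 genes, 1 of them 2-fold higher and 0 lower, with a median of 0.03. The higher one was PCNA, the sliding clamp of DNA polymerase, at 2.39 and 1.84 on the arrays. RFC2, a subunit of the complex that loads this clamp, was the lowest at -0.68, from 0.08 and -1.44. No RPA probe reached a mean of 1.5-fold higher, where 2216 of all 22574 probes did, so a count of 0 does not set RPA apart. PCNA, which acts at the same forks, was 4.33-fold higher by its mean. Of the 17 replication probes 2 had a mean at least 1.5-fold higher, and 1, PCNA, was so on both arrays. The difference between PCNA and the RPA probes was not tested.

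**Figure D3:**
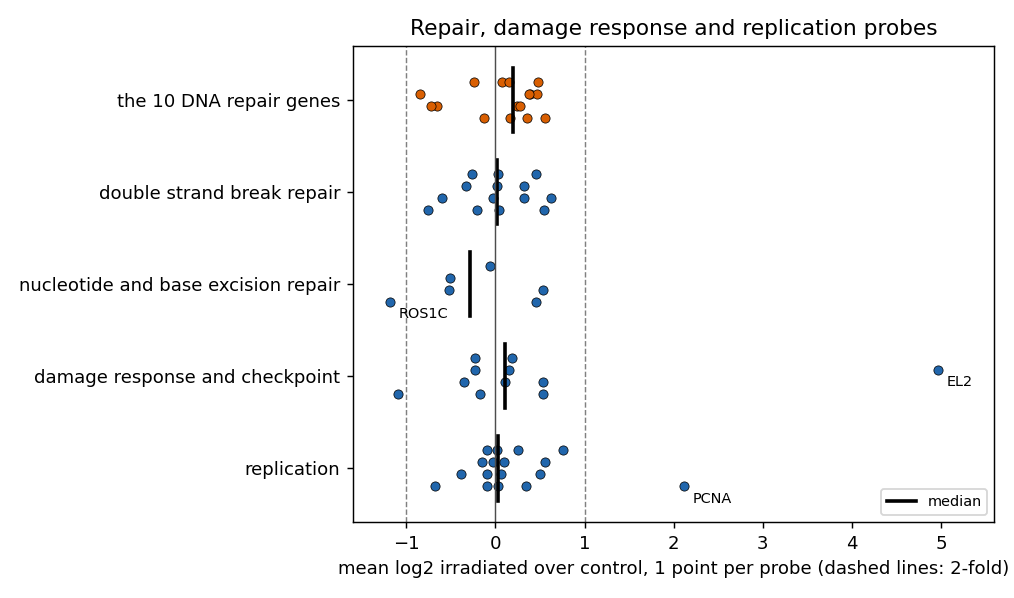
Mean log2 ratio of irradiated over control of both arrays (x axis), 1 point per probe, for the 10 DNA repair genes (orange) and 4 lists of related genes (blue), with list medians as black bars and 2-fold as dashed lines. EL2 at 4.97 and PCNA at 2.11 stand far to the right, and the points of the 10 repair genes all lie between the dashed lines.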

How the data were processed

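The authors deposited log10 ratios of the channels of each array, 22575 rows. 1 row lacks a value on an array and was left out. A GenePix scanner and GeneSpring version 4 for normalization are named in the series' design text. Column medians were 0.051 and 0.20 log10 units, so the columns were taken as not centred. The sources used here give neither the background handling nor the numerator.

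Spot intensities were recovered as the simplest fraction that gives each value at 9 decimals. Common factors up to 1000 were put back from the joint intensity density of both arrays. Each array was centred by loess of the ratio on log intensity (span 0.3, 3 robustness iterations), turned to log2, and the swapped array was negated. As deposited, the centred columns correlated at 0.25 over all probes. Turned, they correlated at -0.25 over all probes but at 0.55 in the brightest 2 deciles, so the turn rests on bright probes. The dye-following part is the difference of the arrays divided by 2, and its robust SD is the scaled median absolute deviation. Steps were tested on simulated arrays built from these recovered intensities, with noise drawn separately for each array. They are therefore no independent check of the recovery or of the correlation between arrays. Python 3.11.15, numpy 2.4.6 and pandas 2.3.3 were used.

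Of 17860 annotated numbers 17839 had 1 gene and 21 several. Number n was read at row 105 × (214 − ((n − 1) mod 215)) + 105 − floor((n − 1)/215). Symbols and synonyms, and nothing else, came from RefSeq's genes of assembly ASM3414082v1. The members and lists were chosen with earlier results of these data known. All probes of the 10 genes are named, and of the other lists each gene past 1.5-fold on both arrays, the highest and the lowest. MRE11, NBS1, CRYD and PARP3 were added after their values were seen. No sequences were used.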

Additional observations from a re-analysis of the deposited data

How the results depend on the processing

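The count of 0 repair probes past 2-fold on both arrays was also 0 with median centring, with intensities from the reduced fractions and with a loess span of 0.6. It was 0 as well at 1.5-fold and by the mean of the arrays. The counts of 0 at 3-fold and with the opposite numerator follow from the main count and add nothing to it. Annotation numbers as row numbers gave 0 too, but that setting reads other spots, so its count does not bear on these genes. The first array alone gave 1 higher, the swapped array alone 1 higher and 4 lower, and reading both columns as irradiated over control 1 higher. The median of 0.20 was 0.057 with median centring, 0.28 on the swapped array alone, 0.12 with 1 value per gene, 0.36 in the brighter 5 deciles, -0.20 with Cy3 over Cy5, -0.059 with both columns read as irradiated over control and 0.00061 with annotation numbers as row numbers. Of the 16 means, 11 were above 0, but 5 with Cy3 over Cy5 and 7 with both columns read alike. With median centring the base excision list had a median of -0.029 in place of -0.29, the damage response list one of -0.11 and the replication list one of 0.11. Signs turned with Cy3 over Cy5 to -4.97 for EL2, -2.11 for PCNA and 1.18 for the dim ROS1C probe, and with annotation numbers as row numbers to -0.33, -0.40 and 0.016. These turns follow from the settings, as Cy3 over Cy5 negates every value and annotation numbers as row numbers read other spots. The causes of the other shifts were not tested. PCNA stood at 2.93 with median centring. No paired analysis was possible because there is 1 replicate per group. Over the whole array the counts of 415 higher and 63 lower probes at 2-fold were 257 and 27 with median centring.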
